A study of Mus musculus with 51 samples.

Results

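The mice compared here were 4 months old and of the DatCreEed strain, in which Cre from the gene of the dopamine transporter acts on Eed in dopamine neurons. Of the 51 RNA-seq libraries of the study, 19 were labelled as midbrain dopaminergic (mDA) neurons at 4 months, and these were all the members: 9 labelled wt and 10 labelled mutant. Each library came from 1 animal. Neurons had been sorted from adult midbrain by fluorescence-activated cell sorting, and the libraries were made with Smart-seq2, a full-length method for small amounts of RNA. The study set neurons with a working Polycomb repressive complex 2 (PRC2) against neurons without it. The labels give the strain and the genotype word only, so the alleles that the wt animals carry, Cre included, remain unnamed in those sources. The libraries were sequenced in 3 sets, labelled as sequencing batches, and sex is unevenly spread over them. In set1 the 3 wt animals were male and the 4 mutants female. In set2 each genotype had 2 females and 2 males. In set3 the 2 wt animals were female and the 2 mutants male. Genotype and sex therefore cannot be told apart within set1 or within set3, and only set2 separates them.

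PRC2 places methyl groups on lysine 27 of histone H3, a mark of silent chromatin that lies over the promoters of many developmental regulators in cells where these are off. EED is the subunit that binds the mark and stimulates the EZH1 and EZH2 methyltransferases, and PRC1 is the partner complex whose CBX subunits read the same mark. Dopamine neurons of the midbrain make dopamine with tyrosine hydroxylase (Th) and aromatic amino acid decarboxylase (Ddc), load it into vesicles with Slc18a2 and take it back up with Slc6a3.

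Levels are CPM, counts scaled to an equal library size by TMM, and a floor of 3 counts stood for 0.573 to 1.89 CPM, depending on the library. Total counts ran from 3500770 to 5337848 in wt and from 1654667 to 4587312 in mutants. A gene was called when its Benjamini-Hochberg adjusted p from edgeR's quasi-likelihood test was under 0.05. Each log2 fold change is mutant over wt. The labelled cell type had its defining markers: Th lay at 1433 to 2649 CPM in wt and 1056 to 3036 in mutants, and none of the 12 defining markers was called. Eed itself (chromosome 7, 89954654 to 89980976, GRCm38) was 6.85 to 24.9, median 14.997 CPM in wt and 14.8 to 39.8, median 19.5 CPM in mutants. It was not lower in mutants (log2 fold change 0.74, SE 0.24, adjusted p = 0.114), and since the table counts the gene as a unit, exons removed by Cre are not seen apart and the labels are not checked by it. Sex-linked counts matched the labelled sex in 19 of 19 libraries.

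Of the mutant libraries 6 stood apart. These 6, the 4 of set1 and the 2 female ones of set2, had 1.40% to 1.96% of their counts on genes with transcripts under 1 kb. The wt libraries had 2.40% to 3.09% and the other 4 mutants, all male, from 2.89% up to 3.598%. The 50 most abundant genes of a library took 31.3% to 41.4% of counts in the 6, 26.3% to 33.8% in wt and 25.2% to 27.1% in the other 4. Totals were 1654667 to 3017630 in the 6 and 4094640 to 4587312 in the other 4. Counts of mCherry, a fluorescent protein sequence counted in the same libraries, stood at 0 to 7.54 CPM in the 6. They stood at 8.25 to 17.7 CPM in the other 4 and 5.17 to 18.8 in wt, and what this difference reflects was not tested. All 6 were female, so sex and this difference cannot be told apart among the mutants. Results are given below with and without these 6 libraries.

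**Figure D1:**
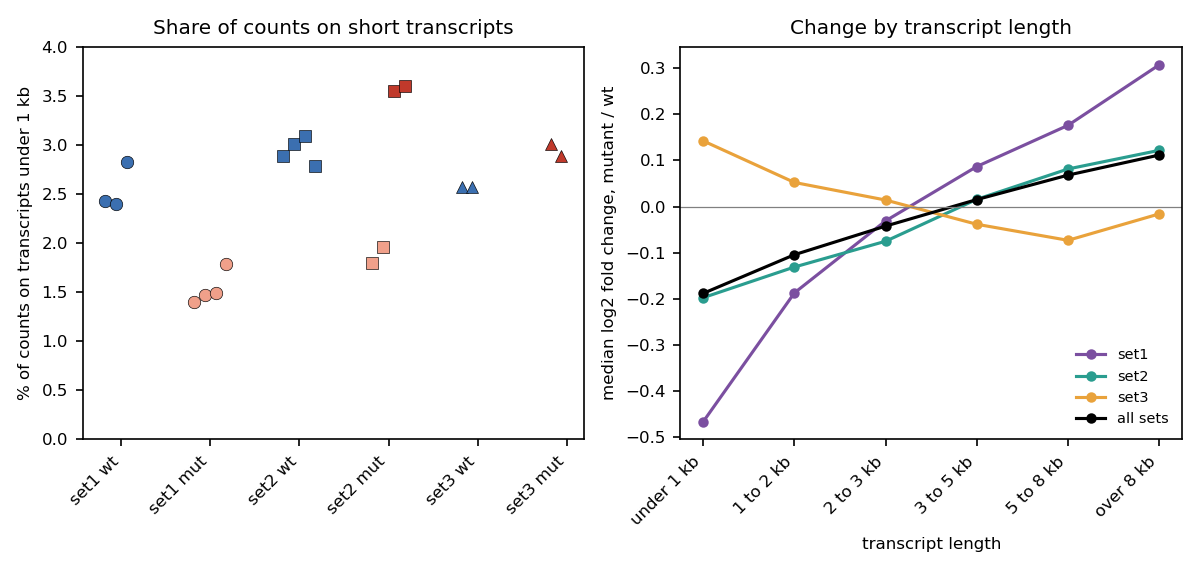
Left, the percentage of each library's counts on genes with transcripts under 1 kb, by set and genotype (1 point per library); the 6 mutant libraries under 2% are in the light colour and no wt library is among them. Right, the median log2 fold change (mutant over wt) of all tested genes in 6 bins of transcript length, within each set and over all sets; under 1 kb the medians are -0.47 in set1, -0.20 in set2 and 0.14 in set3.

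Mutant neurons at 4 months had higher levels of developmental transcription factor genes such as Shox2, Pitx1 and Foxd3, many of them near the detection floor in wt neurons, while none of the genes that define the dopamine neuron was called over all sets. Shox2 was also called in each set taken alone, while Pitx1 and Foxd3 were called in no set that could test them. Of 15425 genes tested, 181 were called (1.17% of those tested), 89 higher (0.577%) and 92 lower (0.596%). At an unadjusted p under 0.05 there were 2238. RLE scaling gave 96 higher and 56 lower calls. Leaving out 1 library at a time gave totals from 78, without wt D296, to 485, without mutant C213. The higher genes had a median log2 fold change of 1.49, with 54 of 89 over 2-fold and 24 below 1 CPM in wt. The lower genes had a median of -0.66, with 7 of 92 over 2-fold and 0 below 1 CPM in wt. For 13 genes (0.0843% of those tested) every mutant library lay above every wt library, and for 0 (0%) every mutant library lay below. All 13 were called: Shox2, Dleu2, Stxbp2, Ccnd2, Kcp, Echdc2, BC061194, Gata2, Twist1, Isl2, Pitx1, Evx1 and Foxl2os.

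**Figure D2:**
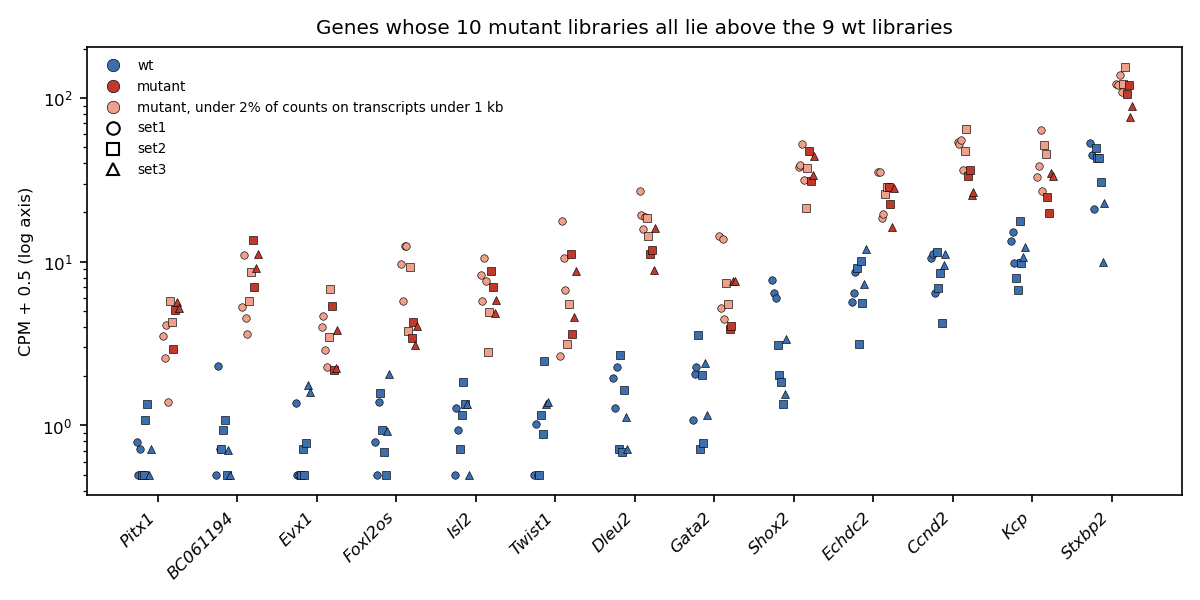
CPM + 0.5 (log axis) of the 13 genes whose mutant libraries all lie above the wt libraries, 1 point per library, with the sets as symbols and the 6 mutant libraries low in short transcripts in the light colour. In Shox2 the mutants sit at 20.7 to 51.8 CPM and the wt libraries at 0.854 to 7.21 CPM.

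The genotype contrast was then made within each set. Within set1 it called 1502 of 13465 genes (11.2%), within set2 8 of 13477 (0.0594%) and within set3 69 of 13931 (0.495%). The genes called in all 3 sets taken alone were 5: Shox2, Onecut2, Stxbp2, Dleu2 and Sfmbt2. The last of these was singled out after its values were seen. All 5 were higher in mutants in each set.

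Shox2 (chromosome 3, 66971723 to 66981771) encodes a homeodomain factor of limb, heart and nerve development. In set1 its level was 5.52, 5.95 and 7.21 CPM in the wt libraries and 31.0, 37.4, 38.7 and 51.8 in the mutants. In set2 it was 0.854, 1.34, 1.55 and 2.62 in wt and 20.7, 30.8, 37.1 and 46.9 in mutants, and in set3 1.06 and 2.89 in wt and 33.4 and 44.0 in mutants. The wt libraries of set1 were the highest of the wt libraries, and each mutant was above them. Over all sets the mean was 37.2 ± 8.95 CPM (SD, n = 10) against 3.22 ± 2.39 (SD, n = 9), a 12.9-fold difference (log2 fold change 3.69, SE 0.27, edgeR adjusted p = 4.64e-13). The within-set log2 fold changes were 2.73, 4.39 and 4.29.

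Onecut2 (chromosome 18, 64340032 to 64398488) encodes a cut-homeodomain factor of developing neurons. Its levels in wt differed between sets: 13.8, 22.1 and 23.5 CPM in set1, 5.41, 7.45, 8.4 and 9.15 in set2 and 24.4 and 35.3 in set3. The mutants were at 61.6, 131, 143 and 153 CPM in set1, 24.8, 40.8, 81.7 and 91.2 in set2 and 79.9 and 89.8 in set3. Within each set the genotypes were apart, but 1 set2 mutant lay below the highest set3 wt library. The log2 fold change was 2.38 (SE 0.21, edgeR adjusted p = 1.15e-10).

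Stxbp2 (chromosome 8, 3630960 to 3643998) encodes a Munc18 protein of exocytosis known from blood and epithelial cells. In wt it was at 20.5, 44.2 and 52.8 CPM in set1, 30.2, 42.6, 42.7 and 48.8 in set2 and 9.51 and 22.2 in set3. In mutants it was at 109, 120.3, 121 and 139 CPM in set1, 106, 119, 122 and 153 in set2 and 75.8 and 89.4 in set3. The lowest library of each genotype was in set3, and the groups did not overlap (log2 fold change 1.77, SE 0.16, edgeR adjusted p = 1.3e-10).

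Dleu2 (chromosome 14, 61602836 to 61682373) is a long non-coding RNA gene that hosts the miR-15a and miR-16-1 microRNAs. All wt libraries lay at or below 2.21 CPM (median 0.776), and the mutants at 8.47 to 26.5, median 15.5 (log2 fold change 3.99, SE 0.41, edgeR adjusted p = 7.64e-09). The sources used here do not say whether the counting used strand, so reads of an overlapping or antisense gene cannot be told apart. Sfmbt2 (chromosome 2, 10370440 to 10595253) encodes an MBT-domain Polycomb group protein. It was at 12.04 to 29.4, median 16.8 CPM in wt and 27.2 to 134, median 68.5 in mutants. Of the mutants 1, in set2, lay inside the wt range, and within each set the genotypes were apart (log2 fold change 1.87, SE 0.22, edgeR adjusted p = 2.96e-07).

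The calls of these 5 genes were the same without set1 and without the libraries that stood apart. Without set1 the contrast called 20 of 15551 genes (0.129%), and without the 6 libraries low in short transcripts 13 of 16526 (0.0787%), 12 of them higher. The genes named next were chosen after their values were seen. Of these 12, 11 had also been called over all libraries: Shox2, Gad1, Stxbp2, Onecut2, Bcam, Dleu2, Foxd3, BC061194, Ccnd2, Sfmbt2 and Kcns3. The twelfth was the gene model AA987161 (log2 fold change 2.34, or 0.24 over all libraries), and the 1 lower gene was Per3 of the circadian clock (-1.05, or -0.30 over all libraries). Shox2 stood at 4.67 (edgeR adjusted p = 1.55e-10), Onecut2 at 2.06 and Stxbp2 at 1.92 there. In that fit the genotype contrast rests on 4 male mutants and the 6 wt libraries of set2 and set3, since set1 then holds no mutant.

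The windows around the annotated starts of Shox2, Stxbp2, Dleu2 and Sfmbt2 are shown because these genes were called in every set. They are RefSeq windows of GRCm38.p6, 250 bases before to 50 after the start, 5′ to 3′ on the gene's strand, and capitals mark each CG dinucleotide, the letters whose density defines CpG islands. Windows were matched by symbol.
Shox2 chr3:66981722-66982021 (minus strand): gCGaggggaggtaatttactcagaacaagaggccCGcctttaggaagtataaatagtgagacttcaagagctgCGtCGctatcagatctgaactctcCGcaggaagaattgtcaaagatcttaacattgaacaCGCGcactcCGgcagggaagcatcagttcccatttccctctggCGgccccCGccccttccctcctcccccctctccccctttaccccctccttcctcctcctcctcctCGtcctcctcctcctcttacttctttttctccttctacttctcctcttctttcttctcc
Stxbp2 chr8:3630859-3631158 (plus strand): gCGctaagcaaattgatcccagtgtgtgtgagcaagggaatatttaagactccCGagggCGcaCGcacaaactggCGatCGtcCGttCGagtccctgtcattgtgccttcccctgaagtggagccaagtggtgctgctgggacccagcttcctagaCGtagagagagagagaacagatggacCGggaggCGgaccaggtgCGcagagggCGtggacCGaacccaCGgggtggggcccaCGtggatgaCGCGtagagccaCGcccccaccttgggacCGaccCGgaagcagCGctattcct
Dleu2 chr14:61682324-61682623 (minus strand): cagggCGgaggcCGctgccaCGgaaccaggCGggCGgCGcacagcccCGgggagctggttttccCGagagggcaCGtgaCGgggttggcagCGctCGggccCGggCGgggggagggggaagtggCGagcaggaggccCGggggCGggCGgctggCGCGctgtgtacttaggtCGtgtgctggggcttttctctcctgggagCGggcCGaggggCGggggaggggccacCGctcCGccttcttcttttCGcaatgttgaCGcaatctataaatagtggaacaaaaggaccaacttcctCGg
Sfmbt2 chr2:10370201-10370500 (plus strand): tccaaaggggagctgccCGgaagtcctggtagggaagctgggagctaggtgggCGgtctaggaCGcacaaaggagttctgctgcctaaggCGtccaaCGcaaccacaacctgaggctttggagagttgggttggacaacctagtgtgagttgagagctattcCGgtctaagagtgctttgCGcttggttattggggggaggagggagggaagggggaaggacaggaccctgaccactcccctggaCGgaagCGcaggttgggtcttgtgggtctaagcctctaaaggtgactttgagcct
Sfmbt2 chr2:10372186-10372485 (plus strand): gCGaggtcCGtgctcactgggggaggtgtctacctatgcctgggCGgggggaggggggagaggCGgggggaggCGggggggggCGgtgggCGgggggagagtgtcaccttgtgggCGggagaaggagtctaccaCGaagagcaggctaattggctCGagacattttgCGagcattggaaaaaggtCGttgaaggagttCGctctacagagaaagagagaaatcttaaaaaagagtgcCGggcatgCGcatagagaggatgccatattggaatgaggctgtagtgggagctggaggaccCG
They hold 11 CG pairs for Shox2, 22 for Stxbp2 and 29 for Dleu2, and 9 and 16 for the pair of Sfmbt2 starts. CG reads the same on both strands. Over all 21615 windows of the reference table the median was 13, and 95.8% hold at least 1 CG, so its presence sets no gene apart. Those windows include genes not tested here. For the 12059 tested genes with a window (78.2%) the median was 19.5. Windows were found for 64 of the 89 higher and 66 of the 92 lower genes (71.9% and 71.7%), under the 80% needed, so a comparison of promoter composition between called genes and the rest is void.

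Ccnd2 encodes cyclin D2, a driver of entry into the cell cycle. It was at 3.7 to 10.9, median 9.09 CPM in wt and 24.96 to 64.1, median 41.4 in mutants. The lowest mutants were the pair of set3, and they were still above all wt libraries (log2 fold change 2.23, SE 0.24, edgeR adjusted p = 2.07e-08). Within set1 and set2 it was called, and within set3 it was not (1.37, adjusted p = 0.107). It was the 1 called gene among 8 tested CDK inhibitors and D-type cyclins, where 1.17% of all genes tested were called. Of the inhibitors, Cdkn1a was at 6.94 ± 1.18 CPM in wt and 7.45 ± 3.52 in mutants (log2 fold change -0.05, adjusted p = 0.966). Cdkn2b, a well known PRC2 target in other cells, was at or below 2.62 CPM in every library (13 counts in all wt and 30 in all mutants together, adjusted p = 0.344). Cdkn2a had 5 and 11 counts and was too low to be tested, so a difference was not detectable at this depth.

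The remaining separated genes outside the transcription factors were Kcp, Echdc2, BC061194 and Foxl2os. Kcp, which encodes a secreted kielin/chordin-like modulator of BMP signals, was at 6.19 to 17.2, median 10.1 CPM in wt and 19.5 to 63.1, median 33.6 in mutants (log2 fold change 1.70, edgeR adjusted p = 4.36e-05). Echdc2, which encodes a mitochondrial enoyl-CoA hydratase family protein, was at 2.65 to 11.5, median 6.76 in wt and 15.8 to 35.04, median 26.5 in mutants (1.82, adjusted p = 9.82e-05). BC061194 was at 0 to 1.81, median 0.218 in wt and 3.1 to 13.1, median 7.33 in mutants (4.28, adjusted p = 9.82e-05). The highest wt library of BC061194 was a set1 male, and the mutants of set2 and set3 included the highest values. Foxl2os, a long non-coding RNA gene on chromosome 9 next to the forkhead gene Foxl2, was at 0 to 1.55, median 0.423 in wt and 2.6 to 12.1, median 4.5 in mutants (3.22, adjusted p = 0.000631), with the same limit on strand as Dleu2. Without the 6 libraries Kcp was at 1.14 (edgeR adjusted p = 0.339), Echdc2 at 1.63 (adjusted p = 0.181), and Foxl2os at 2.53 (adjusted p = 0.386), and all 3 lost the call.

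Developmental transcription factors outside the HOX clusters made up 18 of the 89 higher genes and 0 of the 92 lower ones. Of the list 116 passed the filter on low counts, which drew on mutants at both ages, so members could pass through the group in which they are high. The sign or median of those that passed therefore says nothing about the list, and the 18 calls are a description beside the 0.577% of all genes that rose. Without set1 5 of them were called, namely Shox2, Pitx1, Tbx1, Foxd3 and Onecut2, and without the 6 libraries 3.

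The called factors belong to several families, and most had a few counts per library. Foxd3, a regulator of neural crest, had 2 counts over the wt libraries, and the level in mutants stood to that in wt at a ratio of 66.0 (95% counting interval 17.8 to 552; edgeR adjusted p = 2.54e-05). Its level in the 6 libraries was 0 to 5.65 CPM and in the other 4 mutants 3.47 to 5.36, against at most 0.442 in wt. Within set3, the only set that could test Foxd3, it was at 7.35 (edgeR adjusted p = 0.0811). Pitx1, a hindlimb and pituitary factor, was at 0 to 0.854 CPM in wt and 0.886 to 5.27, median 3.69 in mutants (log2 fold change 3.87, adjusted p = 0.000179). Isl2, a LIM homeodomain factor of motor neurons, was at 0 to 1.34 in wt and 2.3 to 10.04, median 5.93 in mutants (3.34, adjusted p = 0.0016). For Pitx1 and Isl2 every mutant library of each set was above every wt library. For Pitx1 this rests on a few counts. The lowest mutant (D226, 0.886 CPM) lay under its own floor of 1.33 CPM, beside 0.854 in wt library D878. Without the 6 libraries Pitx1 was at 3.94 and Isl2 at 3.29, and both calls were lost (edgeR adjusted p = 0.0672 and 0.223). Of the sets taken alone Isl2 was called within set1 only (edgeR adjusted p = 0.0111), where sex equals genotype. Pitx1 was called within neither set2 nor set3 (adjusted p = 0.466 and 0.102), and set1 could not test it.

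Twist1, a mesoderm factor, was at 0 to 1.99 CPM in wt and 2.17 to 17.3, median 5.62 in mutants (log2 fold change 3.54, edgeR adjusted p = 0.00601). Gata2, a zinc finger factor of blood and of GABA and serotonin neurons, was at 0.221 to 3.05, median 1.53 in wt and 3.4 to 13.9, median 5.97 in mutants (2.24, adjusted p = 0.00165). Evx1, a spinal interneuron factor, was at 0 to 1.27 and 1.67 to 6.29, median 3.16 (3.16, adjusted p = 0.00997). These 3 were separated between genotypes in all 19 libraries, and without the 6 libraries their log2 fold changes were 2.71, 2.12 and 3.66 and the calls were lost (edgeR adjusted p = 0.426, 0.282 and 0.223). Of the sets taken alone Twist1 and Gata2 were called within set1 only, where sex equals genotype. Within set2 their adjusted p in edgeR was 0.569 and 0.709. Evx1 could not be tested in any set alone.

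The T-box genes Tbx1 (log2 fold change 4.58), Tbr1 (2.82) and Tbx5 rose, as did the forkhead genes Foxf2 (3.78) and Foxf1 (2.49). Tbx5 had 3 counts in wt and 32 in mutants, a ratio of 13.2 (95% counting interval 4.12 to 67.2). Hand2, a heart and limb bHLH factor, had 2 and 35 counts, a ratio of 21.6 (5.55 to 185). Barx1 (3.27), Lhx6 (2.59) and Wt1 (3.57) were also called. In 8 of these 9 genes, all but Barx1, at least 1 mutant library lay below 1 CPM. Foxf2 ranged from 0.869 to 26.2 CPM in mutants and Barx1 from 1.3 to 16.5. In 19 fits with 1 library left out each, Tbx1, Foxf2, Barx1 and Wt1 were called in 19, 19, 19 and 19 fits, and Tbr1, Tbx5, Foxf1, Hand2 and Lhx6 in 8, 8, 13, 8 and 13. Without the 6 libraries none of these 9 genes was called. Tbx1 was at 6.06, Foxf2 at 2.64 and Barx1 at 2.84 there (edgeR adjusted p = 0.181, 0.557 and 0.282). Within set1, the only set that could test them, Tbx1, Foxf2 and Barx1 were called. Tbr1 and Lhx6 were called in no set that could test them, and Tbx5, Hand2 and Foxf1 could not be tested in any.

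HOX genes, which set position along the body axis, were close to the floor at this age. Of 39 on the list 22 passed the filter, and of these 3 rose and 0 fell, where 0.577% of all genes tested rose. The filter drew on the mutants too, so members could pass through the group in which they are high, and the share of members above 0 says nothing about the list. Hoxc8 was at 0 to 1.77, median 0 CPM in wt and 0 to 6.95, median 2.62 in mutants (log2 fold change 3.12, edgeR adjusted p = 0.00335). Hoxa7 was at 0.191 to 1.31, median 0.288 and 0.628 to 13.9, median 3.07 (2.64, adjusted p = 0.0343). Hoxa10 was at 0 to 0.884, median 0.285 and 0 to 4.47, median 1.96 (2.38, adjusted p = 0.0214). In all 3 genes the genotypes overlapped, and for Hoxa10 the 4 mutants outside the 6, at 2.67 to 4.47 CPM, and 2 of the 6 were above every wt library. Hoxc8, Hoxa7 and Hoxa10 were called in 19, 10 and 18 of the 19 fits with 1 library left out. Of the sets taken alone Hoxa7 was called within set1, the only set that could test it. Hoxa10 was not called within set3, the only set that could test it, and Hoxc8 could not be tested in any. The summed level of the list was 5.28 to 14.8 CPM in wt libraries and 11.7 to 78.7 in mutants. Without set1, and without the 6 libraries, 0 HOX genes were called. Without the 6, Hoxc8 was at 2.12, Hoxa7 at 2.65 and Hoxa10 at 2.76 (edgeR adjusted p = 0.501, 0.458 and 0.118).

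**Figure D3:**
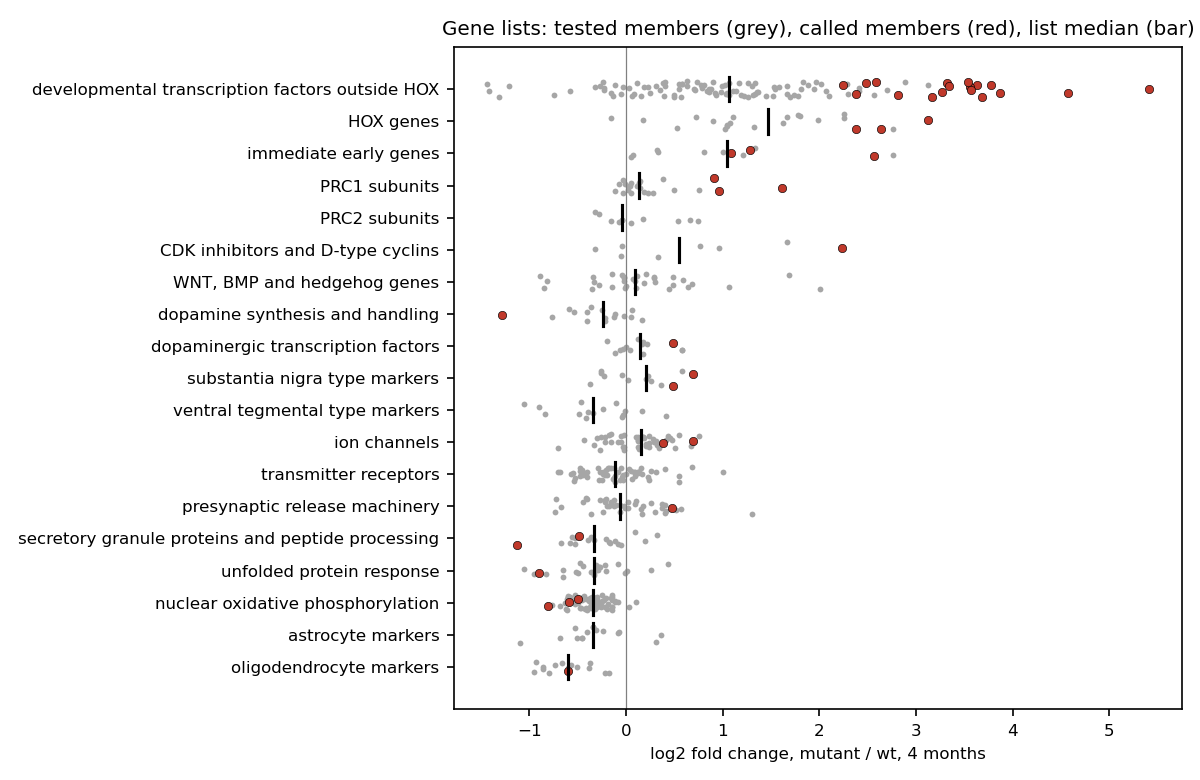
Log2 fold change (mutant over wt, 4 months, all sets) of the tested members of 19 gene lists; grey points are members that were not called, red points are called ones and the black bar is the list's median. Developmental factors, HOX genes and immediate early genes near the floor in wt could pass the filter through the mutants. Their place to the right of 0 can therefore be set in part by that filter, and how far was not tested. The oxidative phosphorylation genes have a median of -0.34.

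Genes of the Polycomb complexes were compared next. None of 11 PRC2 subunit genes was called (median -0.04), Ezh2 (0.54) and Suz12 (-0.04) among them. Of 23 PRC1 subunit genes 3 rose and 0 fell (median 0.13), where 0.577% of all genes tested rose. Within set1 4 of the 23 were called higher, where 674 of 13465 genes tested rose, and within set2 and within set3 0 were. In set3 9 of the 23 were positive. Without the 6 libraries 10 were positive (median -0.04) and 0 were called. Cbx8, a reader of the PRC2 mark, was at 2.18 to 11.7, median 6.21 CPM in wt and 9.94 to 33.0, median 17.8 in mutants (log2 fold change 1.61, edgeR adjusted p = 0.00315). The 4 mutants outside the 6 were all above wt, at 19.4 to 33.0 CPM, and the set1 mutants overlapped wt. Ring1, a ubiquitin ligase subunit, was higher in the 6 libraries. It was at 45.8 to 71.7 CPM in the 6 libraries, above all wt (13.0 to 33.3), and at 20.9 to 31.5 in the other 4 mutants, within the wt range (log2 fold change 0.91 over all, adjusted p = 0.0138; 0.24 without the 6, adjusted p = 0.899). Cbx8 was not called without the 6 either (1.95, adjusted p = 0.137).

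None of the genes that define the dopamine neuron passed the test over all sets at 4 months. The 12 defining markers had a median log2 fold change of -0.03, between -0.26 and 0.18. Th was at 1696 ± 582 CPM (SD, n = 10) in mutants and 1897 ± 405 (SD, n = 9) in wt, a log2 fold change of -0.12 (SE 0.10, edgeR adjusted p = 0.648). Within the sets it was -0.25, -0.07 and -0.04, and both genotypes were lowest in set1. Slc6a3 was at 0.16 (SE 0.11), Slc18a2 at -0.22 (SE 0.08) and Ddc at 0.05 (SE 0.11). The transcription factor genes Nr4a2 (0.18), Pitx3 (-0.20) and En1 (0.00), which maintain these neurons, had SEs of 0.12, 0.29 and 0.13. A p that misses the threshold does not show equal levels. Nr4a2 was called within set1 (0.92, adjusted p = 0.00037), while it was at -0.12 in set2 and -0.14 in set3. Aldh1a1, which encodes a retinaldehyde dehydrogenase of ventral nigral neurons, was called within set3 (0.46, adjusted p = 0.0464), while it was at -0.62 in set1 and -0.44 in set2.

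At 8 months, in 16 other animals of the same strain tested alone, 8 of 11 defining markers tested were called lower. Of all 13956 genes tested at that age, 154 were called lower (1.1%). Th stood at -1.24, Slc6a3 at -1.41, Slc18a2 at -1.51 and En1 at -1.61 there. The difference between the ages was not tested.

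Of 16 genes of dopamine synthesis and handling, 1 fell: Gpr37, which encodes an orphan receptor of dopamine neurons and oligodendrocytes, was at 3.77 to 25.6, median 13.3 CPM in wt and 0.435 to 20.9, median 3.21 in mutants (log2 fold change -1.28, edgeR adjusted p = 0.032). It held in 8 of the 19 fits with 1 library left out. Of all genes tested 0.596% fell. Within set1 5 of the 16 genes were called lower, where 828 of 13465 genes tested fell. Gpr37 was at 0.435 to 4.42 CPM in the 6 libraries and 2.46 to 20.9 in the other 4 mutants, and without the 6 its log2 fold change was -0.61 (adjusted p = 0.764). The 15 oligodendrocyte markers, summed, were at 491 to 1785 CPM in wt (median 1312) and 554 to 1365 in mutants (median 639), 0 of 15 had a log2 fold change above 0, and their part in this result was not tested. Of 13 markers of the substantia nigra type, Kcns3 and Satb1 rose and 0 fell, where 0.577% of all genes tested rose. Kcns3, a modulatory potassium channel subunit gene, was at 55.0 to 113, median 78.2 CPM in wt and 96.6 to 155, median 139 in mutants. Within each set the lowest mutant was above the highest wt library, and the 4 mutants outside the 6 were at 136 to 155 (log2 fold change 0.69 over all, adjusted p = 0.0069; 1.04 without the 6, adjusted p = 0.0284). At 8 months Kcns3 was called lower in mutants (-0.90, adjusted p = 0.00635).

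Satb1, a chromatin organizer of nigral neurons, was at 248.2 to 355 CPM in the 6 libraries, 148 to 249.7 in the other 4 and 124 to 283 in wt. Its call (log2 fold change 0.48, edgeR adjusted p = 0.046) was lost without the 6 (-0.03, adjusted p = 0.988) and held in 6 of 19 fits with 1 library left out. None of the 15 ventral tegmental markers was called over all sets. Within set1 4 of the 15 were called lower, where 828 of 13465 genes tested fell. The median of these markers was -0.34 over all sets, -0.66 in set1, -0.14 in set2 and -0.15 in set3, and 0.17 without the 6 libraries.

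Gad1, which encodes the main enzyme of GABA synthesis, rose in mutants over all sets, and of the sets taken alone it was called in set3 (log2 fold change 1.31, edgeR adjusted p = 0.0143), not in set2 (1.33, adjusted p = 0.225) or set1 (-0.10, adjusted p = 0.854). In set1 it was at 51.03, 56.8 and 64.6 CPM in wt and 43.4, 44.3, 46.999 and 70.4 in mutants, and the groups overlapped. In set2 it was at 22.5, 39.0, 45.3 and 55.3 in wt and 62.9, 96.2, 113 and 127 in mutants, and in set3 at 28.6 and 39.9 in wt and 81.6 and 88.3 in mutants, with no overlap in either. The log2 fold change was 0.79 (SE 0.18, edgeR adjusted p = 0.0178), and 1.73 without the 6 libraries (adjusted p = 1.11e-05). The test of a difference between sets gave an unadjusted p of 0.000648 (edgeR adjusted p = 0.903). The other 4 GABA and glycine neuron markers were not called over all sets. Within set1 1 of these 4 was called lower, where 828 of 13465 genes tested fell. Over all sets Gad2 was at -0.41, the vesicular transporter gene Slc32a1 at -0.06 and the glycine transporter gene Slc6a5 at 0.68. At 8 months Gad1 was called at 2.58 (adjusted p = 1.37e-10).

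Of 16 immediate early genes, which respond to neuronal activity, 12 passed the filter. Of these 3 rose and 0 fell, where 0.577% of all genes tested rose. All 12 were positive over all sets (median 1.05), but the filter drew on the mutants too. Members could pass through the group in which they are high, so this sign and median say nothing about the list. Within set1, set2 and set3, 9 of 11, 5 of 8 and 8 of 10 tested members were positive. Nr4a1 was at 10.5 to 26.9, median 16.8 CPM in wt and 16.5 to 78.0, median 32.9 in mutants (log2 fold change 1.09, edgeR adjusted p = 0.0167). Egr1 was at 2.85 to 14.6, median 6.22 and 5.65 to 69.1, median 13.7 (1.28, adjusted p = 0.046), and Fosl2 at 0 to 3.11, median 1.44 and 1.67 to 25.1, median 6.76 (2.56, adjusted p = 0.0366). In each the highest mutant was 1 of the 6 libraries. Without the 6, Nr4a1 was at 0.39, Egr1 at 1.17 and Fosl2 at 1.31, and none was called. The calls held in 19, 5 and 9 of 19 fits with 1 library left out. Among 50 ion channel genes Kcns3 and Kcnma1 (0.38) rose, and among 41 presynaptic genes Bsn (0.48), a scaffold of the active zone, rose. These calls are 4% and 2.44% of the tested members, beside the 0.577% of all genes that rose. With 1 call in 41, the result describes Bsn and not the list. Of 59 transmitter receptor genes 0 were called over all sets. Within set1 58 of them were tested, and 5 were called higher and 10 lower. Of all 13465 genes tested within set1, 674 were called higher and 828 lower. Kcnma1 and Bsn lost their calls without the 6 libraries (0.22 and -0.06) and held them in 6 and 8 of 19 fits with 1 library left out.

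Myo7a had the largest fold of the 92 lower genes. It encodes myosin VIIa, an unconventional myosin of sensory hair cells, and lies at chromosome 7, 98051054 to 98119522, 8.07 Mb from Eed on the same chromosome. The wt libraries were at 21.6, 32.3 and 39.3 CPM in set1, 0.569, 12.6, 15.04 and 34.0 in set2 and 19.7 and 33.3 in set3, and the mutants at 1.05 to 7.53, median 3.09. The lowest wt library, in set2, was below every mutant, and the other 8 wt libraries were above every mutant. The log2 fold change was -2.78 (SE 0.45, edgeR adjusted p = 0.000243), and -2.95 without that library. It was called within set1 (-2.86) and set3 (-3.37), not within set2 (-1.99) or without the 6 libraries (-2.06, adjusted p = 0.458), and again at 8 months (-4.17, adjusted p = 2.95e-05). Within 5 Mb of Eed 28 genes were tested, 1 rose and 1 fell, 7.14% beside the 1.17% of all genes tested that were called. The lower gene was 4632427E13Rik (-1.42, edgeR adjusted p = 0.00821). Within 10 Mb, a window chosen after the values were seen, 8 of 124 tested genes were called (6.45%). On the whole of chromosome 7, 19 of 1205 were called (1.58%). None of the 8 genes within 10 Mb was called without the 6 libraries, where 13 of 16526 genes tested were called. Of the 8, only Iqgap1 was called without set1, where 20 of 15551 genes tested were called. Ccdc81, 0.051 Mb from Eed, rose (1.40, adjusted p = 0.00938). Ccdc81 was at 3.63 to 7.78, median 5.88 CPM in wt and 4.37 to 27.8, median 16.0 in mutants. At 8 months it was at 0.00. It was not called without the 6 libraries (0.74). Whether alleles near Eed differ between the genotypes was not tested.

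Scg5, which encodes the 7B2 chaperone of the prohormone convertase PCSK2, was at 234 to 724, median 343 CPM in wt and 76.5 to 305, median 140.2 in mutants (log2 fold change -1.13, SE 0.21, edgeR adjusted p = 0.00335). It was called within set1 (-1.60) and set3 (-1.02). The 6 libraries were at 76.5 to 153 CPM and the other 4 mutants at 179 to 305, and without the 6 it was at -0.63 (adjusted p = 0.66). Scg5 and Pam (-0.49), a peptide amidating enzyme gene, were the 2 called of 19 secretory granule genes, where 0.596% of all genes tested fell. Pam was at 0.05 without the 6 (adjusted p = 0.974) and was called in 9 of 19 fits with 1 library left out. The list's median was -0.33 over all sets and 0.11 without the 6. Within set1 11 of its 19 genes were called lower, where 828 of 13465 genes tested fell. Tmem181a (-0.94), Dynlt1a (-0.51) and Dynlt1b (-0.70) were also each called within set1 and within set3. They lie near each other on chromosome 17, from 6256726 to 6440500, and Dynlt1a and Dynlt1b, dynein light chain genes, are near-identical copies whose reads the counting could split. Their calls held in 13, 5 and 8 of 19 fits with 1 library left out. At 8 months the 3 genes were at 0.06, 0.01 and 0.13.

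Genes of mitochondrial respiration fell mainly within set1. Of 75 nuclear oxidative phosphorylation genes, 3 fell over all sets (median -0.34), 50 fell within set1 (median -1.02), 0 within set2 (-0.27) and 0 within set3 (0.28, 71 positive). Of all genes tested 0.596% fell over all sets, and 828 of 13465 fell within set1. Without the 6 libraries all 75 had positive log2 fold changes (median 0.31) and 0 were called. Ndufc2, a complex I subunit gene, was at 73.4 to 118 CPM in wt, 20.4 to 51.5 in the 6 libraries and 71.3 to 114 in the other 4 mutants. Cox6c, of complex IV, was at 137 to 194, 50.4 to 101 and 150.2 to 187.05 in the same order. In both genes and in Atp5g1, of the ATP synthase, the 6 libraries lay below every wt library and the other 4 mutants overlapped wt. With 1 library left out the calls of Ndufc2, Cox6c and Atp5g1 held in 19, 4 and 4 of 19 fits. The part of the low share of short transcripts in these values was not tested.

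Of 26 genes of the unfolded protein response 1 fell, the chaperone gene Dnajb9 (-0.90, edgeR adjusted p = 0.046), with list medians of -0.73 in set1, -0.27 in set2 and 0.22 in set3. Of 23 cholesterol synthesis genes 1 fell, Fdps (-0.58, adjusted p = 0.0333), with medians of -0.54, -0.54 and 0.32. These calls stand beside the 0.596% of all genes tested that fell. Dnajb9 was at 5.21 to 19.1 CPM in the 6 libraries and 44.0 to 103 in the other 4 mutants, with wt at 25.1 to 91.1. Dnajb9 and Fdps were called in 5 and 7 of 19 fits with 1 library left out.

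**Figure D4:**
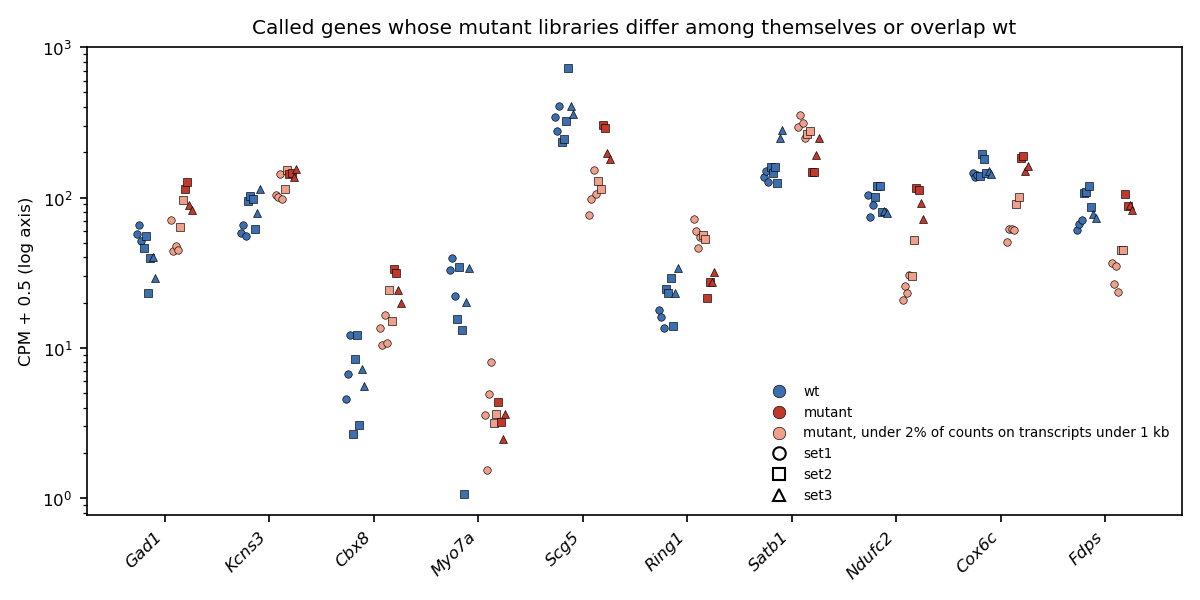
CPM + 0.5 (log axis) of 10 called genes, 1 point per library, with the sets as symbols and the 6 mutant libraries low in short transcripts in the light colour. In Ring1, Ndufc2, Cox6c and Fdps the light points lie outside the wt range and the dark mutant points within or near it, and in Gad1 and Cbx8 the dark mutant points lie above the light ones on the whole.

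The higher genes more often had 1 sign across the sets than the lower ones, a difference that was not tested. Of the 89 higher genes, 65 could be tested in every set and 56 of these were positive in all 3, with medians of 1.53, 1.05 and 0.97 over those tested in set1, set2 and set3. All 92 lower genes could be tested in every set, 57 were negative in all 3, and the medians were -1.21, -0.58 and -0.09. In 23 of the 89 higher genes the 4 mutants outside the 6 were all above wt, and in 42 the 6 were. In 0 of the 92 lower genes the 4 were all below wt, and in 55 the 6 were. The choice of these genes used the same libraries, so these counts describe them and test nothing. The direct test of a genotype effect that differs between sets called 0 genes in edgeR (604 at an unadjusted p under 0.05, smallest adjusted p 0.271), and also 0 with RLE scaling, with the 4-month libraries alone and with a stricter filter.

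**Figure D5:**
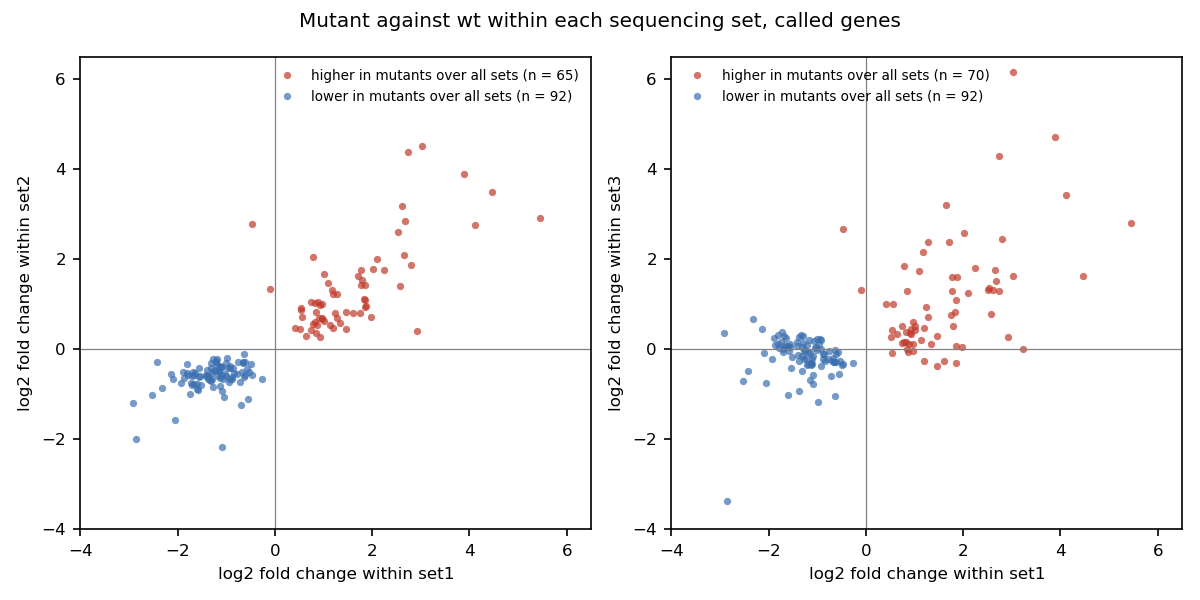
Log2 fold change (mutant over wt) of the genes called over all sets, within set1 (x axis) against set2 (left) and set3 (right); red points are genes called higher and blue points genes called lower. The red points lie mostly in the upper right of both panels, and the blue points lie below 0 in set2 but on both sides of 0 in set3, where their median is -0.09.

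Transcript lengths were set beside the calls. The median length was 3575.5 bases for the higher genes, 2187 for the lower ones and 3090 for all genes tested (lengths for 97.8% to 98.9%). Of the 91 lower genes with a length 9 were under 1 kb and 0 over 8 kb, and of the 88 higher genes 2 and 10. Among all 15093 tested genes with a length 868 were under 1 kb and 797 over 8 kb. These differences were not tested. In set1 the median log2 fold change of all tested genes went from -0.47 under 1 kb to 0.31 over 8 kb, in set2 from -0.20 to 0.12, and in set3 from 0.14 to -0.02.

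The 8-month libraries are separate animals and were tested here in a fit of their own, but they also entered the fit behind the 4-month contrast. There they share its filter, its estimate of the spread and its sex term, which set1 and set3 cannot inform alone, so they are not fully independent of the 4-month calls. At 8 months 229 of 13956 genes were higher in mutants (1.64%) and 154 lower (1.1%). Of the 89 genes higher at 4 months 86 could be tested at 8 months, 66 were positive and 41 were called higher, Shox2 (2.76), Onecut2 (2.61), Stxbp2 (2.64), Dleu2 (3.76), Ccnd2 (3.52) and Hoxc8 (6.31) among them. Of the 92 genes lower at 4 months 36 were negative and 3 were called lower. Satb1 and Bsn, higher at 4 months, were at -0.57 (adjusted p = 0.0562) and -0.46 (adjusted p = 0.0478) at 8 months in edgeR, and Gata2 was at 3.38.

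Markers of other cell types were measured in the same libraries. In bulk libraries fewer cells of a type and less RNA per cell cannot be told apart. Of 15 oligodendrocyte markers 0 rose and 1 fell, and the list's median was -0.61 over all sets and -0.10 without the 6 libraries. Of 15 astrocyte markers 0 were called over all sets (median -0.34, summed level 698 to 1095 in wt and 529 to 1187 in mutants). None of 9 microglia markers tested and none of 14 endothelial and mural markers was called over all sets. Within set1 6 of 15 oligodendrocyte, 5 of 15 astrocyte and 1 of 5 tested microglia markers were called lower. Of all 13465 genes tested within set1, 828 fell.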

How the data were processed

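The deposited table holds raw counts per gene for each library, as whole numbers. Per the submitters' processing notes the authors aligned reads with STAR 2.7.0a to mm10 (GRCm38), and these notes do not name the counter, the annotation or whether strand was used (not given in the sources used here). Libraries came from sorted neurons and Smart-seq2, per the labels. Each carries its own animal label.

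All 35 dopaminergic libraries were fitted together with edgeR 4.0.16 in R 4.3.3 (quasi-likelihood test, TMM scaling, genes kept by group at a minimum count of 10), with set within age and sex as terms. The 4-month genotype contrast was read from that fit, with Benjamini-Hochberg adjustment at 0.05 over all genes tested. Fitted folds, CPM and their SD come from the scaled library sizes. The 19 libraries ranged from 1654667 to 5337848 counts, and intervals and the floor of 3 counts cover counting error only. In 81 pairs of replicates of 1 group none had identical counts, and the smallest chi-square per degree of freedom was 6.98. Python 3.11.15 with scipy 1.17.1 made the tables, and the tests were tried on simulated data.

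Members and gene lists were chosen with earlier results of these data known. The text names Eed, 10 genes throughout (Th, Slc6a3, Slc18a2, Ddc, Nr4a2, Pitx3, En1, Cdkn2a, Cdkn2b and Cdkn1a), the 15 largest changes on each side at a mean log2 CPM of at least 1, called genes whose groups did not overlap and up to 4 called members per list. Others, such as Sfmbt2, Per3, Bcam, Ccdc81, Tmem181a and the dopamine, GABA and PRC2 members that were not called, were chosen after their values were seen. Alternatives were RLE scaling, DESeq2 1.42.0, other filters, models without set or sex, the 4-month libraries alone, each set alone or left out, and each library left out. Leaving out 6 libraries and removing a length trend were added after seeing the data. A few called or listed genes are not reported here.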

Additional observations from a re-analysis of the deposited data

Results flagged for a closer look

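In 10 results 1 library stood far from the rest of its group, judged on log2(CPM + 0.5) by the gap to its nearest neighbour over the group's range. The wt and the mutant group of each of 80 named genes were looked at, and chance flags about 1 in 20 groups tested in this way. A list of this length can therefore arise by chance. For Foxd3, Tbx1 and Hand2 every other wt library was at 0 CPM. Wt library D878 of set2 was the lowest wt library for Myo7a, at 0.569 CPM, and the highest for Scg5, at 724 CPM. Wt library C241 of set2 was the highest wt library for Barx1 (1.99 CPM), Hoxc8 (1.77 CPM) and Foxd3 (0.442 CPM), and wt library D943 of set3 for Tbr1 (5.77 CPM) and Hand2 (0.444 CPM). The wt libraries D295 and D296 of set1 were the highest for BC061194 (1.81 CPM) and Tbx1 (0.884 CPM). Mutant library D226 of set1 was the lowest mutant for Slc6a3, at 1247 CPM. Values below 0.573 CPM in this list lie under the floor of 3 counts in every library.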

How the results depend on the processing

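The number of called genes (181, 89 higher and 92 lower) depended on the settings. It was 352 (206 higher, 146 lower) with DESeq2, which gave no adjusted p for 601 genes, and 57 (44 and 13) with no term for the set. Within set1, set2 and set3 alone it was 1502 (674 and 828), 8 (7 and 1) and 69 (43 and 26). It was 20 (19 and 1) without set1, 79 (38 and 41) without set2, 39 (28 and 11) without set3 and 13 (12 and 1) without the 6 libraries. Lower calls were 56 with RLE scaling, 61 with no filter, 45 with no term for sex and 46 with the length trend removed. The cause was not tested. With 1 library left out, totals ran from 78 to 485, higher calls from 48 to 154 and lower calls from 24 to 331. Totals moved by over 1.5 times without D294 (96), D296 (78), D186 (81), C240 (80), C241 (80), D237 (84), D238 (85), C213 (485), C214 (332), D942 (94), C269 (106) and C270 (94). The count of genes whose genotype effect differs between sets was 0 in each setting run.

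Signs changed as follows, on the log2 scale. Within set3 alone Eed was at -0.29, Rsl24d1 at 0.16, Dnajb9 at 0.67, Satb1 at -0.27, Ndufc2 at 0.029, Cox6c at 0.095, Atp5g1 at 0.20, Fdps at 0.18, 4632427E13Rik at 0.37, Nr4a2 at -0.14, En1 at -0.22 and Cdkn1a at 0.30. Without the 6 libraries Dnajb9 was at 0.33, Satb1 at -0.027, Pam at 0.048, Bsn at -0.064, Ndufc2 at 0.17, Cox6c at 0.084, Atp5g1 at 0.099, Fdps at 0.011, Th at 0.0033, Nr4a2 at -0.29, Pitx3 at 0.018 and Cdkn1a at 0.059. Without set1 Slc6a3 was at -0.010, Ddc at -0.035, Nr4a2 at -0.084, Pitx3 at 0.14 and Cdkn1a at 0.22. Within set1 Gad1 was at -0.10 and Cdkn1a at 0.094, and within set2 Ddc at -0.063, Nr4a2 at -0.12 and Pitx3 at 0.49. With no term for the set Ddc and En1 were both at -0.016, and with no filter En1 was at -0.0066. Without set2 En1 was at -0.026 and Cdkn1a at 0.039, and without set3 Pitx3 was at 0.061. Cdkn1a was at 0.066 with no term for sex, 0.064 with the 4-month libraries alone and 0.055 with the length trend removed. With 1 library left out Ddc ran from -0.027 to 0.11, En1 from -0.034 to 0.076 and Cdkn1a from -0.16 to 0.069.

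No paired analysis was possible because the labels give the groups no shared replicate numbers. Sex and genotype coincide in set1 and set3, and set2 alone called 8 genes.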
